A study of Homo sapiens with 66 samples.

Results

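The caspases are a family of cysteine proteases, and the 8 members described here were taken by gene symbol out of the 57992 gene identifiers of the deposited tables. They are the 3 inflammatory caspases CASP1, CASP4 and CASP5 and the 5 apoptotic caspases CASP2, CASP6, CASP8, CASP9 and CASP10. Their RNA was measured in 11 human acute myeloid leukemia (AML) cell lines, which the labels write without hyphens (F36P, HL60, KASUMI1, MOLM13, MONOMAC6, MV411, NB4, NOMO1, OCIAML2, OCIAML3 and THP1). Each line received either medium alone or etoposide, a poison of topoisomerase II, at the IC50 of that line for 24 hours, so the concentration differed between lines. Each of the 22 groups has 3 libraries, which the series describes as biological replicates, and the cells of 3 wells were pooled for each RNA. Every cell line is 1 established culture, so the spread between its libraries does not describe patients. The study set aside the etoposide libraries of OCI-AML2 for poor raw read quality, and they are treated apart from the other 10 lines here.

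Caspases are made as inactive precursors that are activated by cleavage or by assembly on a platform. CASP1 is activated in inflammasomes and processes the cytokines IL1B and IL18, while CASP4 and CASP5 sense bacterial lipopolysaccharide inside the cell, and all of them can cleave GSDMD, the pore former of pyroptosis. CASP8 and CASP10 start apoptosis at death receptors, CASP9 starts it at the APAF1 apoptosome, CASP2 is activated on the PIDD1 platform, and CASP6 is an effector that cleaves lamins such as LMNA. Since activation occurs at the protein level, a transcript level says how much precursor message was present and not how active an enzyme was.

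The genes lie in clusters. On chromosome 11 of GRCh38, CASP4 (chr11:104942866-104969366), CASP5 (chr11:104994235-105023168) and CASP1 (chr11:105025397-105035250) follow each other on the minus strand. CASP10 (chr2:201182872-201229428) and CASP8 (chr2:201233443-201361836) are neighbours on the plus strand of chromosome 2, beside CFLAR, which encodes an inhibitor of CASP8. CASP2 (chr7:143288215-143307696, plus strand), CASP6 (chr4:109688622-109703583, minus strand) and CASP9 (chr1:15490832-15526534, minus strand) lie alone. CARD16, next to CASP1, is nearly identical to a part of it, so reads on the shared part could be left out or divided between them. Annotated exons of CASP6 and CASP9 overlap those of MCUB and CELA2B on the opposite strand by 98 and 101 bases.

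RefSeq promoter sequence of GRCh38.p14 was at hand for 6 of the 8 members. The promoters of CASP4 and CASP5 are shown because these adjacent genes had the most alike promoters of any pair of different members, yet very different transcript levels. The 250 bases before each start are given 5′ to 3′ on the minus strand, for CASP4 chr11:104968575-104968824 and for CASP5 chr11:105023169-105023418, and capitals mark bases that are identical in a global alignment of both. The starts are those of RefSeq, while the gene spans above come from another annotation, GENCODE. The CASP4 window therefore lies inside the span given for CASP4, and the CASP5 window directly before that of CASP5.
CASP4: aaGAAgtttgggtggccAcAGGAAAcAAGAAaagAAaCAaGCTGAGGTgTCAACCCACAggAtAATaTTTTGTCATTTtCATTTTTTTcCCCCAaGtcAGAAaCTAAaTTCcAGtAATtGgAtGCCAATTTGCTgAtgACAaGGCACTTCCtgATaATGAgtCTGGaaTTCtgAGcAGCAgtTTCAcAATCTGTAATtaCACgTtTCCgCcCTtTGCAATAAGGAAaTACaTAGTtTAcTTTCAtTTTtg
CASP5: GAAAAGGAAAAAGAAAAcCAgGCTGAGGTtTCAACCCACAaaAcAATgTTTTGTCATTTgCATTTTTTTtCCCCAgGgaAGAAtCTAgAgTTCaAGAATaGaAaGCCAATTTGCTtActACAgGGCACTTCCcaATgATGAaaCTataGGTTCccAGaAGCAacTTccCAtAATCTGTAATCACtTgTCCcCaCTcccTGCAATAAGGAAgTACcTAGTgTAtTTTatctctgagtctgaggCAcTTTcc
The alignment holds 181 identical bases, 45 mismatches and 48 gap bases, which is 66.1% identity over its length. A motif of GAAA, any 2 bases and GAAA again, searched on both strands, occurs at bases 1 to 10 and, overlapping it, at bases 7 to 16 of the CASP5 sequence and not in that of CASP4, and 3.02% of 35116 RefSeq promoters of this length hold it. The motif TTCNNNGAA occurs at bases 151 to 159 of the CASP5 sequence, in the first of 3 CASP8 promoters and in 6.57% of all. GGGCGG, held by 42.6% of all promoters, occurs on the reverse strand of the CASP4 sequence at bases 207 to 212 and is missing from that of CASP5. These matches are descriptions of sequence.

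Reads on genes numbered 17997404 to 24101670 per library, with a median of 20241014. All lines expressed the haematopoietic and myeloid markers PTPRC, CD33 and SPI1 at 32.5 CPM or more when untreated, where CPM is the count scaled to a common library size. F-36P differed from the other lines, with 0.551 CPM of CEBPA, 0.976 CPM of MPO, and 253 CPM of the erythroid factor GATA1 and 5414 CPM of the fetal globin HBG2. Among markers of other cell types, EPCAM reached 81.9 CPM in KASUMI-1 and ALB 65.5 CPM in F-36P, while CD3E, COL1A1 and KRT5 stayed at 3.30 CPM or below in untreated cells. No 2 libraries of a group agreed within sampling noise, since chi-square per degree of freedom was at least 2.05 over the 66 pairs. In these bulk samples, fewer cells of a kind and less RNA per cell cannot be told apart.

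The basal level of each caspase was compared over the 33 untreated libraries of the 11 lines, on 1 normalized scale. All 7 members that passed the filter on low counts differed between lines at a false discovery rate (FDR) below 0.05 in edgeR's quasi-likelihood F-test, as did 99.4% of the 18130 genes tested, so such a difference is not particular to caspases. CASP5 had too few reads to be tested.

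Among the inflammatory caspases, CASP1 had the widest range. It was highest in OCI-AML2 (64.2 ± 2.20 CPM, SD, n = 3) and THP-1 (60.4 ± 1.15 CPM), followed by MONO-MAC-6 with 55.8 ± 3.47 CPM. It was lowest in F-36P (4.22 ± 1.27 CPM), NB-4 (3.39 ± 0.322 CPM) and KASUMI-1 (1.44 ± 0.262 CPM), 44.6 times below OCI-AML2. The remaining lines lay between 22.0 CPM in HL-60 and 48.0 CPM in MOLM-13, and in the order of the lines 4 of 10 neighbouring pairs overlapped in their libraries. No library of the 3 low lines came near one of HL-60, whose lowest was 20.3 CPM.

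CASP4 ranged less, from 18.8 ± 1.14 CPM in KASUMI-1 to 71.8 ± 2.22 CPM in THP-1, and 8 of 10 neighbouring pairs in the order overlapped. Only KASUMI-1 at the bottom, and THP-1 with MONO-MAC-6 (68.8 ± 6.49 CPM) at the top, stood apart from their neighbours. The 3 untreated F-36P libraries ranged from 25.8 to 57.1 CPM.

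CASP5 was nearly silent. It had 0 reads in 34 of 66 libraries and in all 3 libraries of 6 of the 22 groups, where at this depth up to 0.0482 to 0.0523 CPM is allowed over a group, for counting error alone. Untreated F-36P held 6, 12 and 6 reads (0.430 CPM), THP-1 4, 6 and 7 (0.286 CPM) and MONO-MAC-6 4, 5 and 4 (0.208 CPM), while each other untreated line had at most 3 reads in all. Per kilobase of exon, the median over lines of the basal level was 8.94 CPM for CASP1, 6.76 CPM for CASP4 and 0.00962 CPM for CASP5.

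Among the apoptotic caspases, CASP2 had the highest level per kilobase of exon, with a median over lines of 10.4 CPM, ahead of CASP6 (6.57 CPM), CASP8 (6.44 CPM), CASP9 (2.76 CPM) and CASP10 (1.83 CPM). CASP2 was highest in KASUMI-1 (150 ± 3.39 CPM), then MV-4-11 (124 ± 0.504 CPM) and OCI-AML2 (108 ± 2.02 CPM), each apart from the next line. The 8 other lines formed an overlapping series from MOLM-13 (92.2 CPM) to NOMO-1 (67.2 CPM). CASP6 was highest in KASUMI-1 (24.7 ± 1.19 CPM) and F-36P (21.8 ± 1.98 CPM), whose libraries overlapped, and lowest in OCI-AML3 (4.32 ± 0.0821 CPM).

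The initiators CASP8, CASP9 and CASP10 all had their highest basal level in F-36P, and in each of them its libraries stood apart from those of the next line. CASP8 was at 77.5 ± 6.36 CPM there, against 59.6 CPM in NOMO-1, and was lowest in MV-4-11 (25.6 ± 0.488 CPM). CASP9 was at 31.7 ± 3.74 CPM, against 21.9 CPM in MOLM-13, and was lowest in HL-60 (10.6 ± 1.53 CPM). CASP10 was at 70.2 ± 2.75 CPM, ahead of MONO-MAC-6 (39.3 ± 1.77 CPM) and HL-60 (27.2 ± 1.26 CPM). Below MOLM-13 (21.4 CPM), the CASP10 levels of 7 lines lay between 15.2 and 19.0 CPM with each overlapping the next.

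The genes most like each member in basal pattern were sought among 12122 protein-coding genes, by Pearson correlation of log2(CPM + 1) over the 11 line means, which share libraries and depth. For CASP1 they included SHTN1 (r = 0.97) and LRRCC1 (0.95), and for CASP4 they were MYL12A (0.92), LYRM2 (0.92) and CCDC32 (0.91). CASP5 was followed by IFI44 (0.94), RRAGC (0.94) and MAP1B (0.93), with 5 of its 11 values at 0. The nearest for CASP2 were MAN2B1, ALDH4A1 and HNRNPDL (0.88 to 0.89), for CASP6 INO80C, TMEM268 and TOX (0.90 to 0.93), and for CASP8 ELL2, SDSL and OAZ2 (0.89 to 0.90). CASP9 was closest to SLC2A14, ZDHHC14 and TMEM63B (0.90 to 0.91), and CASP10 to ATP7A (0.96), H2BC4 (0.95) and H2BC21 (0.94). These values are a description over 11 lines.

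The response to etoposide was tested within each line, and a gene was called induced or repressed at an FDR below 0.05 with a fold change above 2, the thresholds of the study. Of 71 tested pairs of a caspase and a line over 10 lines, 6 were called induced and 0 repressed, against 11.1% and 3.96% of all pairs of a gene and a line. The calls were CASP1 in F-36P, KASUMI-1 and NB-4, CASP4 and CASP5 in F-36P, and CASP10 in KASUMI-1. The 5 inflammatory calls stood among 21 tested pairs and the 1 apoptotic call among 50, and the only CASP5 pair passed the filter through its etoposide libraries.

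With the FDR alone, 41 of the 71 pairs rose and 1 fell, against 27.7% and 24.4% of all pairs of a gene and a line. Most of these changes were thus below 2-fold. By line, 6 of 7 members rose in KASUMI-1 and in NB-4, against 31.5% and 31.0% of genes, and 5 of 7 in MONO-MAC-6 (31.8% of genes) and OCI-AML3 (22.4%). In F-36P 4 of 8 rose (35.0% of genes), in MV-4-11 4 of 7 (33.5%) and in NOMO-1 4 of 7 (28.8%). In MOLM-13 3 of 7 rose and 1 fell, against 28.1% of genes in each direction, in THP-1 3 of 7 rose (16.1%) and in HL-60 1 of 7 (17.5%).

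CASP1 rose most in the lines where it was lowest. In KASUMI-1 its 3 untreated libraries had 1.37, 1.73 and 1.20 CPM and the 3 etoposide libraries 7.51, 8.42 and 8.82 CPM. This was a log2 fold change of 2.52 ± 0.17 (SE; adjusted p = 2.31e-06), in a line where 14.6% of genes were induced. In F-36P the untreated libraries had 2.87, 4.81 and 5.84 CPM and the etoposide libraries 20.3, 13.6 and 16.8 CPM, a log2 fold change of 1.91 ± 0.25 (SE; adjusted p = 0.000105), where 24.3% of genes were induced. In NB-4 they had 3.76, 3.16 and 3.78 CPM and then 11.9, 9.93 and 9.99 CPM, a log2 fold change of 1.57 ± 0.15 (SE; adjusted p = 5.21e-07), where 13.2% of genes were induced. In all of these lines the groups were far apart, and 7.34% of the 10588 genes tested in every line were induced in 3 or more of them.

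After etoposide, CASP1 in these lines was still low on a scale shared by the 10 lines. It reached 17.1 ± 3.37 CPM in F-36P, 10.7 ± 1.16 CPM in NB-4 and 8.85 ± 0.685 CPM in KASUMI-1, while untreated HL-60, the next line, had 22.5 ± 2.29 CPM. The fold change contains the untreated level, so low basal level and large fold are not independent of each other.

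In the lines with more CASP1, changes were smaller. It rose by 0.94 on the log2 scale in OCI-AML3 (adjusted p = 0.0361), where the libraries overlapped at 37.3, 23.5 and 46.6 CPM against 75.8, 89.5 and 41.6 CPM. It also rose in NOMO-1 (0.43), MONO-MAC-6 (0.23) and MV-4-11 (0.20) with the groups apart. The log2 fold change was 0.32 in THP-1 (adjusted p = 0.0785), 0.08 in HL-60 (0.640) and -0.18 in MOLM-13 (0.273). None of these lines had a CASP1 call, and 5.34% of genes were induced in HL-60, 8.59% in MOLM-13, 8.53% in MONO-MAC-6, 12.5% in MV-4-11, 8.34% in NOMO-1, 7.18% in OCI-AML3 and 6.38% in THP-1.

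CARD16, the neighbour of CASP1 with near-identical sequence, was induced in 4 lines, with log2 fold changes of 1.22 in KASUMI-1, 1.19 in NOMO-1 and 1.10 in F-36P, and with a mean of 0.766 CPM before and 3.04 CPM after etoposide in NB-4. In KASUMI-1 it was at 0.505 CPM before and 1.19 CPM after etoposide, well below CASP1. CARD18 had 1 read in each of 2 groups and 0 in the others, so a change could not be detected at this depth.

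CASP4 was called in F-36P, with 26.1, 41.3 and 62.6 CPM in the untreated and 101, 92.3 and 90.7 CPM in the etoposide libraries, a log2 fold change of 1.13 ± 0.25 (SE; adjusted p = 0.00317). The groups did not overlap, but the untreated libraries were uneven, and without untreated replicate 1 the log2 fold change was 0.83, under the 2-fold limit. CASP4 also rose in KASUMI-1 from 18.8 ± 1.24 to 29.7 ± 3.42 CPM (log2 fold change 0.66), in NB-4 from 37.9 ± 5.41 to 59.4 ± 3.26 CPM (0.65) and in MONO-MAC-6 from 71.6 ± 6.70 to 81.7 ± 3.34 CPM (0.19), the last with overlapping libraries. The other lines had log2 fold changes between -0.15 and 0.32 and did not pass the test.

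CASP5 had enough reads for a test only in F-36P, where 24.3% of genes were induced. It passed the filter on low counts there through its etoposide libraries alone. Its 3 untreated libraries held 6, 12 and 6 reads and the 3 etoposide libraries 100, 80 and 49, or 0.456 ± 0.208 and 3.70 ± 1.21 CPM, a log2 fold change of 3.01 ± 0.37 (SE; adjusted p = 7.88e-05). In THP-1, which the filter left out, the libraries held 4, 6 and 7 reads before and 10, 10 and 15 after etoposide. In MONO-MAC-6 they held 4, 5 and 4 before and 2, 0 and 2 after. Each other group had between 0 and 5 reads in total, too few to show a change.

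The genes that work with the inflammatory caspases were counted in the same way. Of 16 inflammasome and pyroptosis partners, between 3 and 9 were induced in each of the 10 lines, 62 of 125 tested pairs in all (49.6%, against 11.1% of all pairs of a gene and a line), and 1 was repressed, the sensor NLRP3 in NB-4 (-1.17), which is named because it was the only repressed pair. The median log2 fold change of the list ranged from 0.25 in THP-1 to 1.76 in NB-4, and that of all genes from -0.03 to 0.09. Between 10 and 14 of the 16 partners had enough reads for a test in a line. A pair with few untreated reads could pass the filter through its etoposide libraries alone, so these shares and medians can be raised by the filter. GBP2, an interferon-inducible GTPase, was induced in all 9 lines where it could be tested, by 1.12 in NOMO-1 to 5.57 in KASUMI-1. The membrane rupture protein NINJ1 was induced in 8 lines (log2 fold changes over lines 0.90 to 1.92), as were the inflammasome sensors NLRC4 (0.73 to 2.31) and NLRP1 (0.67 to 3.80).

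The interferon response genes were counted beside them. All 8 were induced in F-36P, 6 in KASUMI-1 and in NB-4, 5 in THP-1 and 1 to 4 in the other lines, 38 of 80 pairs in all (47.5%, against 11.1% of all pairs of a gene and a line), and 0 were repressed. The antiviral gene OAS1 was induced in 8 lines (over all 10 lines 0.35 in NOMO-1 to 5.34 in F-36P), IFIT3 and MX1 in 7 and the ubiquitin-like ISG15 in 6. Of 5 monocytic markers, 1 to 3 were induced in each line, 23 of 37 tested pairs (62.2%, against 11.1% of all pairs of a gene and a line). Between 2 and 5 of these markers had enough reads for a test in a line. A marker with few untreated reads could pass the filter through its etoposide libraries alone, so this share can be raised by the filter. In the lines with a CASP1 call, the untreated and etoposide libraries had summed levels of 74.4 to 81.2 and 449 to 488 CPM in KASUMI-1, 186 to 195 and 309 to 346 CPM in F-36P, and 59.2 to 61.4 and 132 to 137 CPM in NB-4. The sums were also higher after etoposide in 5 lines without a CASP1 call, so a higher sum did not go with a CASP1 call alone. They were 1449 to 2285 and 4947 to 5963 CPM in MOLM-13, 413 to 460 and 1413 to 1503 CPM in OCI-AML3, 331 to 429 and 990 to 1289 CPM in MV-4-11, 633 to 697 and 1106 to 1215 CPM in THP-1, and 5.16 to 7.92 and at least 13.5 CPM in HL-60. The ranges overlapped in NOMO-1 (741 to 791 and 608 to 813 CPM), and in MONO-MAC-6 the sum was lower after etoposide (4099 to 4465 and 3405 to 3801 CPM). A sum mostly follows its most abundant genes, and in MONO-MAC-6 3 of the 4 tested markers were induced while 1 fell by the FDR alone. None of the 5 markers had 0 reads in all 6 libraries of a line, although CD68 was at 0 in untreated HL-60 and at most at 0.844 CPM in any untreated line. The part of these marker and interferon changes in the caspase response was not tested.

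CASP10 rose in more lines than any other caspase. It rose in 9 of 10 lines at the FDR alone, against 3.74% of genes that did so in 9 or more lines, and its etoposide libraries lay above the untreated ones in all 10. The increase was above 2-fold in KASUMI-1, where the untreated libraries had 16.7, 15.6 and 15.7 CPM and the etoposide libraries 36.6, 31.6 and 33.3 CPM (log2 fold change 1.08 ± 0.10, SE, adjusted p = 1.15e-05). NOMO-1 followed with 21.2 ± 2.16 and 40.2 ± 2.69 CPM (0.92), and OCI-AML3 with 15.7 ± 1.21 and 29.6 ± 2.03 CPM (0.91). F-36P, with the highest basal level, rose from 74.3 ± 1.86 to 128 ± 11.1 CPM (0.79). In HL-60 the values were 29.2 ± 1.31 and 33.2 ± 2.46 CPM (0.19, adjusted p = 0.190).

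CASP8 and CASP9 each rose in 8 of 10 lines at the FDR alone, against 6.63% of genes that did so in 8 or more lines. For both, the lines that did not pass the FDR were F-36P and HL-60, where the fold changes were positive as well. For CASP8 the largest fold change was in MV-4-11, from 26.6, 27.4 and 27.9 CPM to 50.6, 42.8 and 51.6 CPM (log2 fold change 0.82 ± 0.08, SE, adjusted p = 8.70e-09). MV-4-11 had the lowest basal CASP8, and NOMO-1, with the second highest, rose from 66.6 ± 4.19 to 104 ± 2.74 CPM (0.64). The other 6 rises lay between 0.34 in NB-4 and 0.48 in KASUMI-1. The log2 fold change was 0.26 in F-36P (adjusted p = 0.0999) and 0.07 in HL-60 (0.607).

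For CASP9, MV-4-11 again changed most, from 11.4, 13.2 and 13.4 CPM to 22.2, 23.5 and 21.2 CPM (log2 fold change 0.82 ± 0.09, SE, adjusted p = 1.49e-07), and MOLM-13 rose from 21.0 ± 1.18 to 35.5 ± 2.77 CPM (0.76). NOMO-1 and NB-4 rose by 0.62 each. The weakest rises that passed the test were MONO-MAC-6 (0.30), KASUMI-1 (0.32) and THP-1 (0.36), the last with an adjusted p = 0.0486. The rises in KASUMI-1 and THP-1 lost the FDR under 5 and 6 of 14 alternatives, so the count of 8 lines for CASP9 is uncertain. F-36P and HL-60 had log2 fold changes of 0.15 and 0.21 (adjusted p = 0.297 and 0.287).

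**Figure D1:**
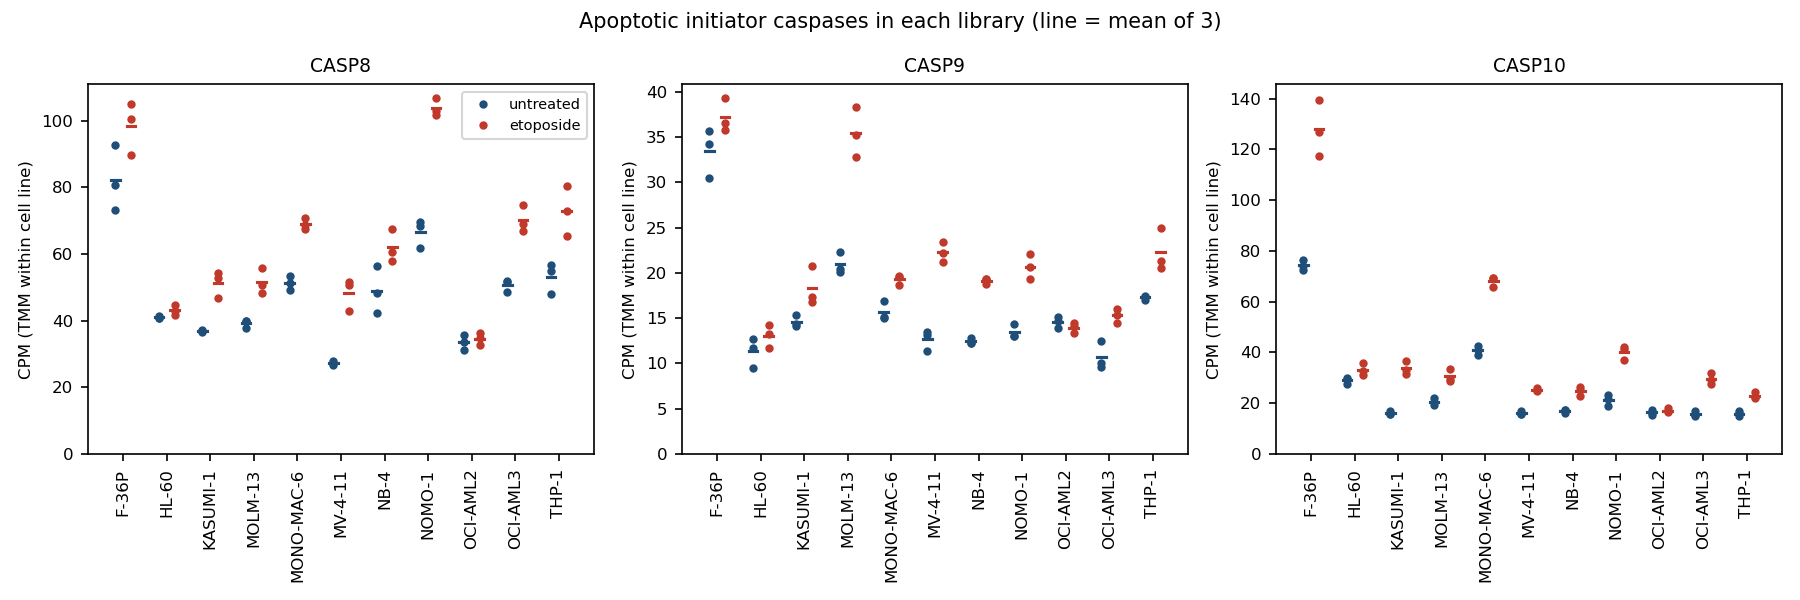
CPM, normalized within each cell line, of CASP8, CASP9 and CASP10 in every untreated (blue) and etoposide (red) library, with short lines for the mean of 3 libraries. CASP10 libraries were separated by treatment in each of 10 lines, while the 6 OCI-AML2 libraries overlapped for every gene.

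Of 11 death receptor partners of CASP8 and CASP10, 0 to 2 were induced per line, 15 of 100 tested pairs in all (15%, against 11.1% of all pairs of a gene and a line), and 0 were repressed. By the FDR alone, 3 to 6 of the 10 tested rose and 0 to 5 fell per line, against 27.7% and 24.4% of all pairs of a gene and a line. Falls were most frequent in MONO-MAC-6, with 5, and in KASUMI-1 and NB-4, with 4 each. The receptor FAS was induced in 7 lines, its log2 fold change over all 10 lines ranging from 0.16 in NB-4 to 3.63 in F-36P, and TNFRSF10B, a receptor for TRAIL, in 4 (up to 2.01 in THP-1). The ligand TNFSF10, which is TRAIL, was induced in 3 lines and the kinase RIPK1 in 1, MONO-MAC-6 (1.05). CFLAR, the neighbour of CASP10 and CASP8, was called in no line, and by the FDR alone it rose in MOLM-13 (0.90), KASUMI-1 (0.82), OCI-AML3 (0.44) and MV-4-11 (0.19) and fell in THP-1 (-0.43), NB-4 (-0.31) and MONO-MAC-6 (-0.23).

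CASP2 passed the test in opposite directions in 2 lines, and CASP6 was higher at the FDR in 3. CASP2 rose in HL-60 from 91.6 ± 5.63 to 113 ± 5.57 CPM (log2 fold change 0.30, adjusted p = 0.0187) and fell in MOLM-13 from 88.5 ± 8.02 to 73.1 ± 3.94 CPM (-0.28, adjusted p = 0.0169). The MOLM-13 change was the only decrease of a caspase that passed the test, and it was lost under 4 of 14 alternatives (adjusted p = 0.0593 in 1 fit of 60 libraries). In NB-4, where the replicate numbers pair the libraries, the log2 fold change of CASP2 was 0.20 with an adjusted p = 0.0621, and the blocked fit gave an adjusted p = 0.0143. CASP6 rose in OCI-AML3 from 4.35 ± 0.148 to 6.93 ± 0.692 CPM (0.67, adjusted p = 0.00268), in NB-4 from 8.70 ± 0.420 to 11.9 ± 0.931 CPM (0.45, adjusted p = 0.00605) and in KASUMI-1 from 24.6 ± 1.19 to 29.1 ± 2.21 CPM (0.24, adjusted p = 0.04997). The KASUMI-1 call is uncertain, since it was lost under 10 of 14 alternatives, with an adjusted p = 0.0884 in DESeq2. In THP-1 it was lower in each etoposide library, 6.55 ± 0.562 against 4.94 ± 0.575 CPM, without passing the test (-0.41, adjusted p = 0.0811).

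The partners of CASP9, CASP2 and CASP6 in the apoptosome, the PIDDosome and the lamina were called in 0 to 2 of 8 genes per line, 6 of 80 pairs in all (7.5%, below the 11.1% of all pairs), and none was repressed. By the FDR alone, 0 to 6 of the 8 rose and 0 to 3 fell per line, against 27.7% and 24.4% of all pairs of a gene and a line. PIDD1, the platform of CASP2, was induced in 3 lines, its log2 fold change over all 10 lines ranging from -0.01 in THP-1 to 1.28 in MONO-MAC-6. LMNA, which encodes lamin A and C, was induced in 2 (up to 2.47 in KASUMI-1), and the platform APAF1 in F-36P alone (1.40). CRADD, the adaptor between PIDD1 and CASP2, was called in no line (-0.63 to 0.50).

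With each line as 1 replicate, the mean response over 10 lines was tested with limma against 0. Over 19974 genes, 21.6% were higher and 13.0% lower at an FDR below 0.05, and 4 of 8 caspases were higher. CASP10 had a mean log2 fold change of 0.72 (95% interval 0.54 to 0.90, adjusted p = 0.000294), CASP9 of 0.50 (0.31 to 0.68, adjusted p = 0.00175) and CASP8 of 0.47 (0.31 to 0.62, adjusted p = 0.000897), each positive in 10 of 10 lines. CASP1 had the largest mean of these, 0.83, with a wide interval (0.27 to 1.40, adjusted p = 0.0277), positive in 9 of 10 lines. The CASP1 call was lost without F-36P (adjusted p = 0.0590) and without NB-4 (adjusted p = 0.0626).

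CASP4 (0.29, interval 0.01 to 0.58, adjusted p = 0.101), CASP2 (0.02, -0.13 to 0.16, adjusted p = 0.861) and CASP6 (0.08, -0.17 to 0.33, adjusted p = 0.605) did not pass. CASP5 did not pass either (adjusted p = 0.110), but most of its fold changes rest on a handful of reads and on the prior count of the fit, so no mean is given. It passed without HL-60 (adjusted p = 0.0404) and without MONO-MAC-6 (adjusted p = 0.0484).

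**Figure D2:**
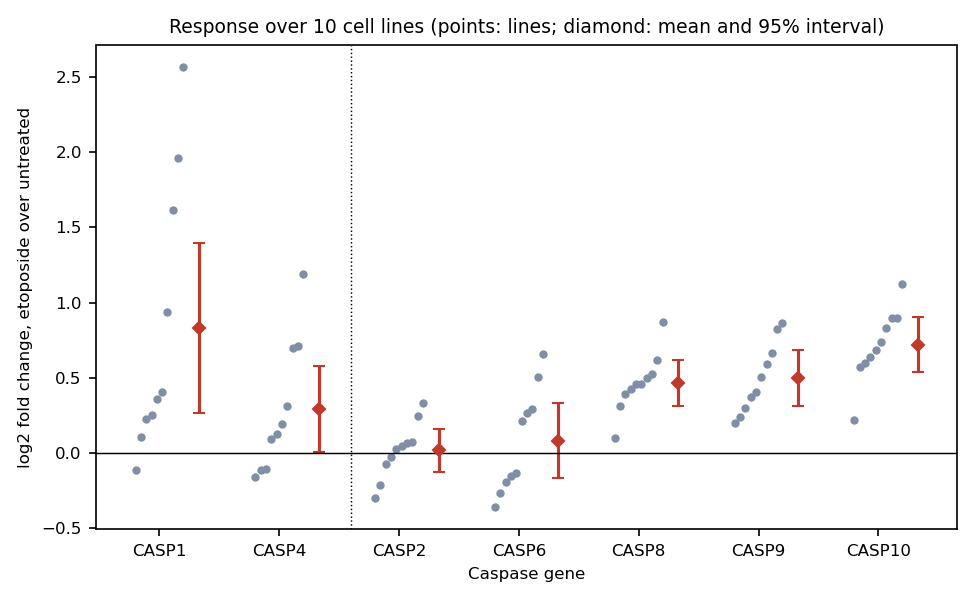
Log2 fold change of etoposide over untreated in each of 10 cell lines (gray points, sorted within a gene) and the mean over lines with its 95% interval (red), for the 7 caspases other than CASP5. The points of CASP8, CASP9 and CASP10 all lie above 0, those of CASP1 spread from below 0 to above 2, and those of CASP2 and CASP6 lie on both sides of 0.

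The responses differed between the 10 lines for the 7 caspases other than CASP5 in the F-test of the interaction terms, as did those of 74.5% of genes. The adjusted p was lowest for CASP1 (1.09e-11), then CASP6 (2.58e-07), CASP10 (1.36e-06), CASP4 (1.03e-05), CASP9 (7.60e-05), CASP8 (0.000228) and CASP2 (0.000622). CASP10 therefore rose in nearly every line and still by unequal amounts. The CASP2 call was lost without replicate 2 (adjusted p = 0.113) and without replicate 3 (adjusted p = 0.0686), and no difference in response can be read for CASP5, which had at most 5 reads per group outside F-36P, THP-1 and untreated MONO-MAC-6 and did not pass the filter without F-36P.

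In OCI-AML2 no caspase passed the test. The 7 members tested had log2 fold changes between -0.10 and 0.06, with adjusted p = 0.998 for each, and CASP1 stood at 64.3 ± 2.43 CPM before and 64.5 ± 6.69 CPM after etoposide. The same held for genes in general, as 0 of 13604 were induced (0%) and 3 were higher at the FDR alone (0.0221%), so these libraries show no response by which a caspase could be judged.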

How the data were processed

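Strand-specific mRNA libraries were sequenced from single ends. According to the study's methods and processing notes, reads were checked with FastQC 0.11.5, aligned to GRCh38.p7 with STAR 2.5.3a and counted per gene of GENCODE release 25, and edgeR 3.20.1 was used. The authors deposited these raw counts of reads per gene for each library, unnormalized. Which strand column of the counts was taken is not given in the sources used here. Genes were named with GENCODE release 44, and 45 Y copies of pseudoautosomal genes, with 0 reads, were left out.

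Counts were analysed with edgeR 4.0.16 in R 4.3.3. Within each line, genes passed filterByExpr (minimum count 10, minimum total 15) and were normalized by TMM. The 3 etoposide libraries were compared with the 3 untreated ones by the quasi-likelihood test, and p-values were adjusted by Benjamini-Hochberg for all genes tested in that line. CPM were scaled by TMM library sizes within a line, over the 33 untreated libraries (basal levels) or over 60 libraries (10 lines). The mean response used limma 3.58.1 with trend on 1 log2 fold change per line. Its 95% intervals are intervals of the mean, computed from the spread between lines, and single lines can lie outside them. The interaction was an F-test of 9 terms in 1 fit of 60 libraries. The limits for counts of 0 (3 reads over a group) cover counting error only. Each statistical script was tested on simulated counts.

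All 8 members are named, and in each list at most 4 genes, those called in most lines with ties by symbol, besides neighbours of the members and counts of 5 or fewer, which were named after their values were seen. Some genes that these rules would name are not reported here. The members, lists and tests were chosen with earlier results of these data known. Replicate numbers were taken to pair the libraries of a line where each of the 3 pairs with a shared number had a correlation above 0.1 after group means were subtracted, which was so in MOLM-13 (lowest r = 0.165) and NB-4 (lowest r = 0.21). Alternatives were other filters, normalizations and tests (edgeR's exact test and DESeq2 1.42.0), a replicate block, and leaving out libraries or lines.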

Additional observations from a re-analysis of the deposited data

Results flagged for a closer look

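The size of the etoposide response differed between the 10 lines for the 7 caspases other than CASP5 by the F-test of the interaction terms of edgeR. The log2 fold changes given here are those of the 1 fit of 60 libraries. The adjusted p was 1.09e-11 for CASP1, with log2 fold changes from -0.11 in MOLM-13 to 2.56 in KASUMI-1, and 1.03e-05 for CASP4, from -0.16 in NOMO-1 to 1.19 in F-36P. Among the apoptotic caspases it was 2.58e-07 for CASP6, from -0.36 in THP-1 to 0.66 in OCI-AML3, and 1.36e-06 for CASP10, from 0.22 in HL-60 to 1.13 in KASUMI-1. CASP9 had an adjusted p of 7.60e-05 and CASP8 one of 0.000228. CASP2 had an adjusted p of 0.000622. CASP5 had an adjusted p of 0.000293, but most of its groups held 0 to 5 reads and it did not pass the filter without F-36P, so no difference in response is read from it. The same test passed for 74.5% of all genes, so a difference between lines is not particular to caspases. Each line received its own concentration of etoposide, and line and concentration cannot be told apart.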

How the results depend on the processing

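The count of 6 induced pairs of a caspase and a line was 5 to 7 when single libraries were left out, 7 with library size alone and 6 with each other filter, normalization, test and fit. Without a minimum fold change it was 42. CASP1 in F-36P, KASUMI-1 and NB-4, CASP5 in F-36P and CASP10 in KASUMI-1 were called under all 14 alternatives, and CASP4 in F-36P in 13, being lost without untreated replicate 1. The CASP5 pair had passed the filter on low counts through its etoposide libraries alone. No fold change that passed the FDR turned its direction. The pairs that passed the FDR numbered 34 to 50 over these settings, with 35 up and 5 down without etoposide replicate 1 against 41 and 1. Of the 42 pairs, 12 lost the FDR under at least 1 alternative, CASP6 in KASUMI-1 under 10, CASP1 in OCI-AML3 and CASP9 in THP-1 under 6 each, CASP4 in MONO-MAC-6 and CASP9 in KASUMI-1 under 5 each, CASP2 in MOLM-13 under 4, and the other 6 under 1 to 3. With the replicate block, 6 pairs were induced and 40 rose and 2 fell by the FDR alone, and the interaction passed for 8 members. In the 2 lines whose libraries pair, the block changed 1 call, that of CASP2 in NB-4, and elsewhere the libraries share only a number. Library size alone moved all fold changes up by 0.25 (log2) in F-36P, 0.21 in NB-4, 0.17 in KASUMI-1 and 0.10 to 0.13 in MV-4-11, MONO-MAC-6 and HL-60, and CASP8 and CASP9 in F-36P then passed the FDR (0.51 and 0.40). CASP8 in F-36P also passed the FDR in 1 fit of 60 libraries (0.31). The mean response was called for 3 to 5 caspases without single lines, 3 without a filter and 4 without any replicate number, and CASP1 lost its call without F-36P (0.71), without NB-4 (0.74) and without a filter (0.82, adjusted p = 0.0525). The interaction was called for 7 to 8 caspases, CASP5 included, and the basal difference for 7 when replicate numbers were left out. Depth limits CASP5, which could be tested in 1 line.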

Other observations

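Within groups, the level of CASP1 varied together with that of its neighbour CASP4. Over the 66 libraries, taken as deviations of log2(CPM + 1) from the mean of their group, the Pearson correlation of both genes was 0.86, and that of the next pair, CASP2 and CASP6, was 0.46. With CASP8 the correlation was 0.45 for CASP1 and 0.42 for CASP4, and with CASP9 it was -0.45 and -0.43. The median over the 21 pairs of the 7 caspases other than CASP5 was 0.09. In OCI-AML3, untreated replicate 2 was the lowest of its group in both genes (23.5 and 29.5 CPM), as was etoposide replicate 3 (41.6 and 30.9 CPM). In F-36P, untreated replicate 1 was lowest in both (2.87 and 26.1 CPM). Libraries share depth and normalization, the pattern was chosen after the values were seen, and what it stems from was not tested.

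Of the 6 markers of other cell types, COL1A1, which encodes a collagen chain and was named after its values were seen, was induced in 7 of the 8 lines that had enough reads for a test, against 11.1% of all pairs of a gene and a line. Its log2 fold change was up to 8.42 in NB-4. Untreated NB-4 had 0 CPM of it and no untreated line more than 1.42 CPM. The NB-4 pair thus passed the filter through its etoposide libraries, and the size of its fold change rests on an untreated level of 0. The median over untreated lines was 0.179 CPM, and 1 of 11 lines reached 1 CPM. Other COL1A1 pairs could thus also have passed the filter through their etoposide libraries alone, and the count of 7 in 8 can be raised by the filter. MPO, a granule enzyme of myeloid cells, was repressed in 5 of 10 lines, by as much as -2.30 in NOMO-1, against 3.96% of all pairs of a gene and a line.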
